A study of Equus caballus with 37 samples.

Results

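The genes described here are KMT2C (ENSECAG00000022544), SRCAP (ENSECAG00000013174), MBTD1 (ENSECAG00000022700) and PRR14L (ENSECAG00000022168), 4 genes linked to chromatin, measured in the blood of Arabian horses over a training season. They were taken by the Ensembl identifiers that the paper prints, and they are 4 of the 26991 genes of the full count table. The study chose these genes on the same libraries, so the direction of their changes is not independent evidence. RNA was sequenced from 37 libraries of jugular blood collected in Tempus tubes. The 4 periods give 6 comparisons, and all of them are described.

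T0 was a group of 6 untrained horses, labelled as 2.5 years old except for 1 of 3 years (T0 replicate 2). T1 comprised 12 libraries of horses in training after the slow canter phase, T2 comprised 11 libraries after the intense gallop phase and before racing, and T3 comprised 8 libraries at the end of the racing season. Trained horses were labelled as 3 years old. All animals were Arabians, and each group held mares and stallions (T0 2 and 4, T1 5 and 7, T2 4 and 7, T3 4 and 4). According to the methods the trained horses were sampled repeatedly, but no label ties a library to an animal. The groups were therefore treated as unpaired, and p-values measure only the spread between these libraries. Libraries were sequenced in pools, and those of T0 were in only some of them. No label ties a pool or a mapping rate to a library, so their part in the results was not tested. Training, month of sampling and, against T0, age and animal cannot be told apart.

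Chromatin is regulated by proteins that write marks on histones, read these marks or move nucleosomes. KMT2C is a methyltransferase that writes methylation of histone H3 lysine residues at enhancers, as part of a COMPASS-like complex. SRCAP is the ATPase of a remodelling complex that places the histone variant H2A.Z into nucleosomes. MBTD1 holds MBT domains, which bind methylated histone tails, and it is a subunit of the TIP60 acetyltransferase complex. PRR14L is a paralogue of PRR14, a protein that ties heterochromatin to the nuclear lamina, and its own role is less well known. In blood, transcripts of this kind come from all nucleated cells. In such bulk samples fewer cells of a type and less RNA per cell cannot be told apart.

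MBTD1 is the only one of the 4 genes with qPCR primers among the sources used here. Both are shown in lower case, because they mark the MBTD1 transcript that the study assayed by qPCR.
MBTD1 forward primer: ctccattgcagcaccagtaa
MBTD1 reverse primer: ttcttcccatccatcaaaatg

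Values are expected counts (estimated reads per gene) divided by a library total that was scaled with the TMM factor of edgeR, given as CPM, a count scaled to the same total in every library. Library totals lay between 3810631 and 14932603 counts, with a median of 10611594. TMM factors lay between 1.17 and 1.24 in T0, between 0.949 and 1.21 in T2 and between 1.05 and 1.25 in T3. In T1 they ranged from 0.410 to 1.14. The factor was below 0.8 in 5 of the 12 libraries of T1 (replicates 1, 2, 3, 4 and 11) and at least 0.922 in the other 7. Those 5 libraries stood apart, so results that rest on T1 were also computed without them. In each comparison of 2 periods a gene was called when the edgeR quasi-likelihood test gave a Benjamini-Hochberg adjusted p below 0.05 over all genes tested and a fold change of at least 1.3. Errors of log2 fold changes are standard errors (SE), and a positive value means a higher level in the second period named.

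All 4 genes passed the filter on low counts in every comparison. They were lower in T1 and in T2 than in untrained horses, and higher at the end of the racing season than in T1 and T2. In T0:T1 all 4 were called lower, against 29.2% of all genes tested that were called lower. In T0:T2 again all 4 were called lower, against 16.5% of genes. In T2:T3 all 4 were called higher, against 22.5% of genes, and in T1:T3 all 4 were called higher, against 32.9%. In T1:T2 only SRCAP was called, as higher, where 11.2% of genes were called higher. In T0:T3 none was called, where 19.6% of genes were called in either direction. In T0:T3 none of the 4 genes reached an unadjusted p below 0.05 in the main edgeR fit, and DESeq2 also called 0 of them.

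**Figure D1:**
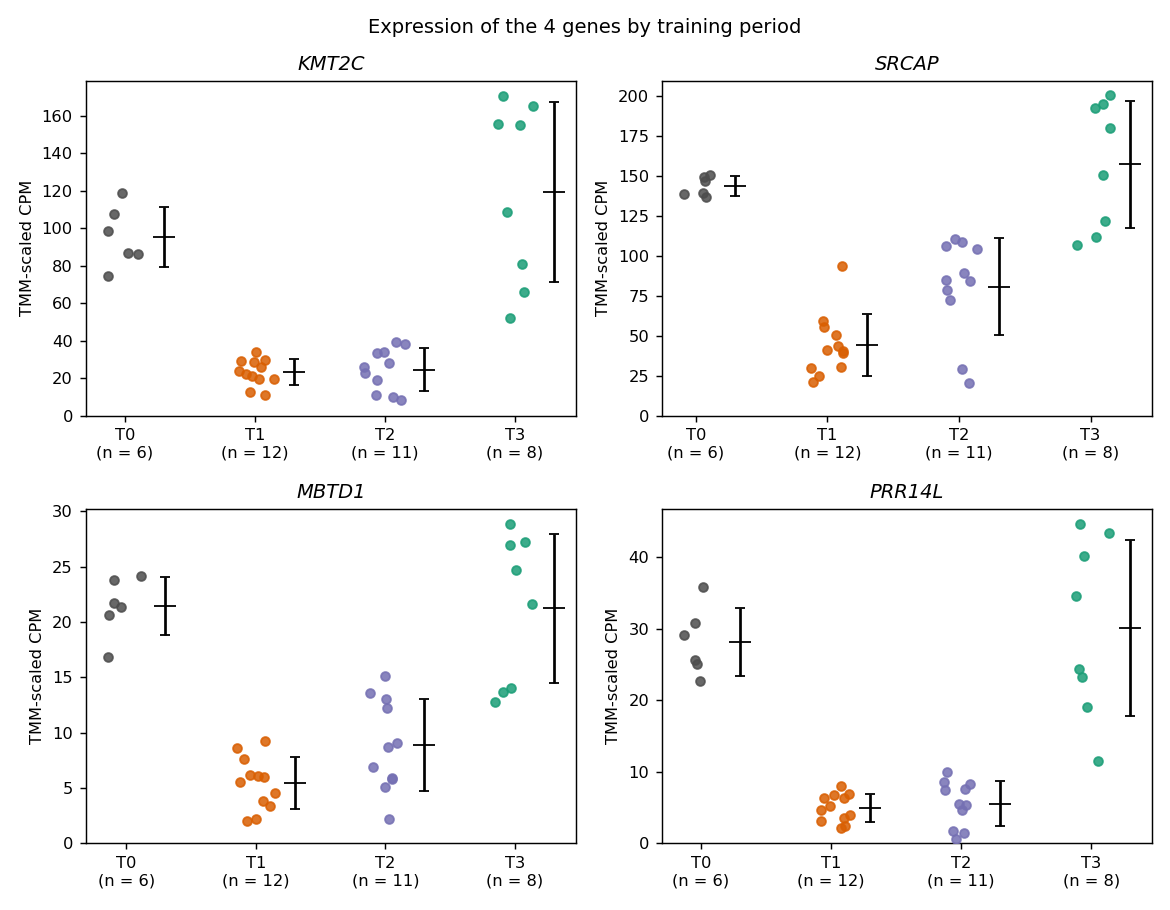
TMM-scaled CPM of KMT2C, SRCAP, MBTD1 and PRR14L (y axis, linear from 0, 1 panel per gene) in the libraries of T0, T1, T2 and T3 (x axis), 1 point per library, with the mean and SD as a black bar beside the points. For each gene the points of T1 and T2 lie below those of T0, and the points of T3 spread from about the T0 level or below it to well above.

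KMT2C, the histone methyltransferase, had levels of 74.4 to 119 CPM in T0, with a median of 92.7. In T1 its level ran from 10.99 to 34.1 CPM, with a median of 23.2. In T2 it ran from 8.18 to 39.3 CPM, with a median of 25.9. Every library of T1 and of T2 thus lay below every library of T0. In T3 the level ran from 52.3 to 171 CPM, with a median of 132. The T3 libraries overlapped those of T0 and lay above every library of T1 and T2. The T0 mean was 95.5 ± 16.1 CPM (SD, n = 6), the T1 mean 23.2 ± 6.96 CPM (SD, n = 12), the T2 mean 24.6 ± 11.3 CPM (SD, n = 11) and the T3 mean 119 ± 48.2 CPM (SD, n = 8). The order of means was T1, T2, T0, T3, and neither T1 and T2 nor T0 and T3 differed beyond their spread.

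By the edgeR test KMT2C was 4.19-fold lower in T1 than in T0 (log2 fold change -2.07, SE 0.20, adjusted p = 9e-07). It was 3.79-fold lower in T2 than in T0 (-1.92, SE 0.28, adjusted p = 0.00048). From T2 to T3 it rose 4.78-fold (2.26, SE 0.30, adjusted p = 4.1e-05), and 22 of the 11599 genes tested rose more. Between T1 and T2 the log2 fold change was 0.11 (SE 0.25, adjusted p = 0.73). From T1 to T3 the change was 2.38 (SE 0.24, adjusted p = 2.3e-07).

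SRCAP, the ATPase of the H2A.Z remodelling complex, was the most even of the genes in T0, where its level lay between 137 and 151 CPM with a median of 143. Its coefficient of variation there was 4.20%, and 98.6% of the 11270 genes compared had a larger one. In T1 the level ran from 21.3 to 93.9 CPM with a median of 41.0, and T1 replicate 6 was the highest. In T2 it ran from 20.5 to 111 CPM with a median of 84.7. Replicates 7 and 2 of T2, at 20.5 and 29.5 CPM, lay apart from the other 9 libraries of T2, which began at 72.6 CPM. In T3 it ran from 107 to 201 CPM with a median of 165. All libraries of T1 and T2 were below all of T0, while T2 and T3 overlapped. Means were 144 ± 6.03 (SD, n = 6), 44.2 ± 19.6 (SD, n = 12), 80.9 ± 30.5 (SD, n = 11) and 157 ± 39.7 CPM (SD, n = 8) in T0 to T3.

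SRCAP fell by 1.72 on the log2 scale from T0 to T1 (SE 0.23, edgeR adjusted p = 1.9e-05) and was lower in T2 than in T0 by a smaller amount (-0.80, SE 0.26, adjusted p = 0.022). It was called higher in T2 than in T1 (log2 fold change 0.88, SE 0.26, edgeR adjusted p = 0.014), where 9 of the 11 libraries of T2 lay above the median of T1. Without the 5 libraries of T1 with low TMM factors this change was 0.75 with an adjusted p of 0.38, and no gene of the whole table was called. From T2 to T3 SRCAP rose by 0.94 (SE 0.24, adjusted p = 0.0035), and from T1 to T3 by 1.84 (SE 0.23, adjusted p = 1.8e-06). The order of means was T1, T2, T0, T3. Of these neighbours T0 and T3 did not differ beyond their spread, and the call between T1 and T2 did not hold without the 5 libraries.

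MBTD1, the reader of methylated histones, had levels of 16.9 to 24.2 CPM in T0, with a median of 21.5. In T1 the level ran from 2.02 to 9.21 CPM with a median of 5.78, and in T2 from 2.20 to 15.1 CPM with a median of 8.67. T2 replicate 1 was the lowest library of T2. In T3 the level ran from 12.8 to 28.9 CPM with a median of 23.1. T1 and T2 did not overlap with T0, and 5 of the 8 libraries of T3 lay above every library of T2. Means were 21.4 ± 2.64 (SD, n = 6), 5.43 ± 2.34 (SD, n = 12), 8.87 ± 4.13 (SD, n = 11) and 21.2 ± 6.75 CPM (SD, n = 8) in T0 to T3. The lowest count behind these values was 6 reads, in T1 replicate 11, where the exact Poisson 95% interval of the level ran from 1.41 to 8.35 CPM. Such intervals cover counting error only.

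MBTD1 was 3.91-fold lower in T1 than in T0 (log2 fold change -1.97, SE 0.25, edgeR adjusted p = 1.2e-05) and 2.36-fold lower in T2 (-1.24, SE 0.27, adjusted p = 0.0032). It rose by 1.24 from T2 to T3 (SE 0.27, adjusted p = 0.00096) and by 1.95 from T1 to T3 (SE 0.25, adjusted p = 3.5e-06). From T1 to T2 its log2 fold change was 0.70 (SE 0.28, adjusted p = 0.056), which did not pass, with 9 of the 11 libraries of T2 above the median of T1. MBTD1 did pass with DESeq2 (0.69, adjusted p = 0.042) and with 4 other settings. Without the 5 libraries of T1 with low TMM factors the change was 0.37 (edgeR adjusted p = 0.54). With the log2 TMM factor as a covariate it was 0.19 (edgeR adjusted p = 0.95). The call also depended on single libraries. The adjusted p was between 0.020 and 0.046 when 1 of replicates 6, 7 and 10 of T1 or 1, 2 and 7 of T2 was left out. The order of means was T1, T2, T3, T0, and neither T1 and T2 nor T3 and T0 differed beyond their spread.

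PRR14L, the paralogue of PRR14, moved by the largest factor of the 4 genes in each comparison in which all were called. Its level was 22.7 to 35.9 CPM in T0, with a median of 27.4. In T1 it ran from 2.22 to 8.06 CPM with a median of 4.94, and in T2 from 0.551 to 10.01 CPM with a median of 5.54. All these libraries were below all of T0. Replicates 7, 1 and 2 of T2, at 0.551, 1.40 and 1.68 CPM, were below a gap, and the other 8 libraries of T2 began at 4.68 CPM. The lowest rested on 6 reads, with an exact Poisson 95% interval of 2.20 to 13.1 reads. In T3 the level ran from 11.6 to 44.6 CPM with a median of 29.5, above every library of T1 and T2. Means were 28.2 ± 4.78 (SD, n = 6), 4.96 ± 1.93 (SD, n = 12), 5.58 ± 3.21 (SD, n = 11) and 30.1 ± 12.3 CPM (SD, n = 8) in T0 to T3.

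PRR14L was 5.81-fold lower in T1 than in T0 (log2 fold change -2.54, SE 0.23, edgeR adjusted p = 9e-07), and 26 of 11544 genes tested fell more. It was 4.91-fold lower in T2 than in T0 (-2.30, SE 0.37, adjusted p = 0.00085), and 10 of 11662 genes fell more. From T2 to T3 it rose 5.30-fold (2.405 on the log2 scale, SE 0.37, adjusted p = 0.00011), and 16 of 11599 genes rose more. From T1 to T3 it rose 6.19-fold (2.63, SE 0.27, adjusted p = 2.6e-07). Between T1 and T2 the log2 fold change was 0.20 (SE 0.34, adjusted p = 0.64). The order of means was T1, T2, T0, T3, and neither T1 and T2 nor T0 and T3 differed beyond their spread.

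**Figure D2:**
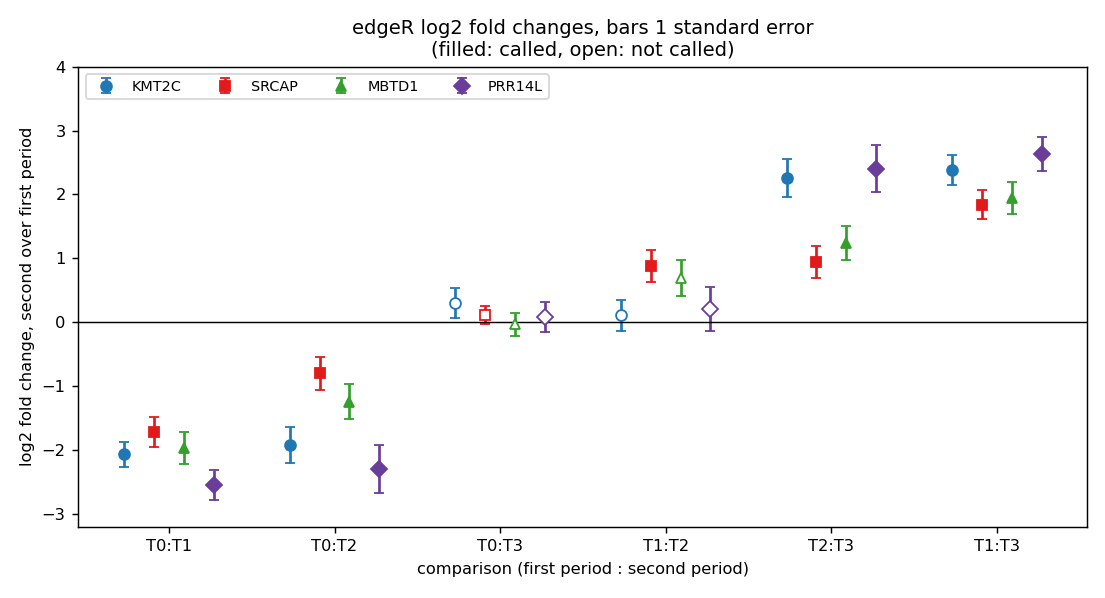
log2 fold change of the second over the first period (y axis) for KMT2C, SRCAP, MBTD1 and PRR14L in the 6 comparisons of periods (x axis), with bars of 1 SE. Filled symbols mark called genes and open symbols genes that were not called. The 4 genes are below 0 in T0:T1 and T0:T2 and above 0 in T2:T3 and T1:T3, and in T0:T3 they lie between -0.03 and 0.30.

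The comparisons share groups of libraries (T0 stands in 3 of them), so their values are set side by side and are not independent of one another. The median log2 fold change of the 4 genes was -2.02 for T0:T1, -1.58 for T0:T2 and 0.10 for T0:T3, and it was 0.45 for T1:T2, 1.75 for T2:T3 and 2.16 for T1:T3. The median over all genes tested lay between -0.05 and 0.06 in these comparisons. In T0:T1 every library of T1 was below every library of T0 for all 4 genes, which was so for 13.9% of genes tested. In T0:T2 the same held for all 4 genes and for 5.97% of genes. In T2:T3 every library of T3 was above every library of T2 for KMT2C and PRR14L, and for 3.90% of genes, whereas SRCAP and MBTD1 overlapped. In T1:T3 the groups did not overlap for all 4 genes, as for 12.1% of genes.

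In T0:T3 the differences were small with wide limits. The interval of 2 SE around the log2 fold change ran from -0.17 to 0.78 for KMT2C and from -0.16 to 0.39 for SRCAP. It ran from -0.39 to 0.33 for MBTD1 and from -0.40 to 0.55 for PRR14L. The differences of T0:T1 and of T0:T2 lie outside the interval of the same gene. The spread between libraries was larger in T3 than in T0 for each gene. The coefficient of variation of KMT2C was 16.9% in T0 and 40.4% in T3, and that of PRR14L was 16.9% and 40.7%. For SRCAP it was 4.20% and 25.2%, and for MBTD1 12.3% and 31.8%. The median over all genes compared was 16.2% in T0 and 18.6% in T3. The difference in spread was not tested. The same 4 libraries of T3 (replicates 1, 2, 4 and 8) held the lowest 4 levels of every gene, and the same 4 (replicates 3, 5, 6 and 7) the highest 4.

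Whether the genes moved by the same factor was asked with the ratio of their counts within a library, which does not depend on the scaling of the library. The ratio is a comparison between periods and not of the levels of different genes, since gene length enters it. A total of 36 differences (6 ratios in 6 comparisons) were tested with two-sided permutation tests, exact except for T1:T2, with Benjamini-Hochberg adjustment over the 36. Of these, 11 had an adjusted p below 0.05, all of them ratios of KMT2C or PRR14L to SRCAP or MBTD1. Of the 11, 10 were differences to or from T2. How many other pairs of genes would pass, or have ratios that do not overlap between periods, was not computed. The differences are thus not shown to be particular to these genes. Without the 5 libraries of T1 with low TMM factors 21 of the 36 passed, among them the ratio of KMT2C to SRCAP in T0:T1 (difference -0.57, exact permutation test, adjusted p = 0.014) and in T1:T3 (0.70, adjusted p = 0.006).

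The log2 ratio of KMT2C to SRCAP had a T0 mean of -0.61 ± 0.21 (SD, n = 6), a T1 mean of -0.89 ± 0.47 (SD, n = 12), a T2 mean of -1.74 ± 0.47 (SD, n = 11) and a T3 mean of -0.48 ± 0.32 (SD, n = 8). In T2 it lay between -2.84 and -1.23, below every library of T0 and T3. The ratio fell by 0.85 from T1 to T2 (permutation test, adjusted p = 0.001) and was 1.26 higher in T3 than in T2 (exact permutation test, adjusted p = 0.00024). It was lower by 1.13 in T2 than in T0 (T0:T2 difference -1.13, exact permutation test, adjusted p = 0.00073). Without the 5 libraries of T1 with low TMM factors the T1:T2 difference was -0.56 (permutation test, adjusted p = 0.018).

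The log2 ratio of PRR14L to SRCAP had a T0 mean of -2.36 ± 0.23 (SD, n = 6), a T1 mean of -3.13 ± 0.64 (SD, n = 12), a T2 mean of -4.08 ± 0.72 (SD, n = 11) and a T3 mean of -2.47 ± 0.38 (SD, n = 8). It too was lower in every library of T2 than in any of T0 or T3. The T2:T3 difference was 1.61 and the T0:T2 difference -1.72 (exact permutation tests, adjusted p = 0.00024 and 0.00073). The unadjusted p of the T2:T3 difference, 1.3e-05, was the smallest that its permutations can give. From T1 to T2 it fell by 0.95 (permutation test, adjusted p = 0.0062). The T0:T1 difference was -0.77 (exact permutation test, adjusted p = 0.044), and the adjusted p was above 0.05 when any 1 of 13 of the 18 libraries was left out, or when 5 counts rather than 0.5 were added.

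The ratios to MBTD1 moved in the same way with more spread. From T2 to T3 the log2 ratio of KMT2C to MBTD1 was 0.97 higher and that of PRR14L to MBTD1 1.33 higher (exact permutation tests, adjusted p = 0.0012 and 0.00076). From T0 to T2 they differed by -0.68 and -1.27 (exact permutation tests, adjusted p = 0.024 and 0.0062). The first of these was at 0.054 without T0 replicate 2 and at 0.053 without T0 replicate 6. The ratio of KMT2C to PRR14L passed in no comparison, with differences between -0.35 and 0.58 and a lowest adjusted p of 0.052 (exact permutation test). That result was close to the limit. The adjusted p of T0:T2 was between 0.029 and 0.047 when 1 of replicates 6 to 10 of T2 was left out, and that of T0:T3 between 0.021 and 0.048 without T0 replicate 4, T3 replicate 1 or T3 replicate 4. Without the 5 libraries of T1 with low factors they were 0.036 and 0.045. The ratio of MBTD1 to SRCAP passed in none either, with differences between -0.45 and 0.29.

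**Figure D3:**
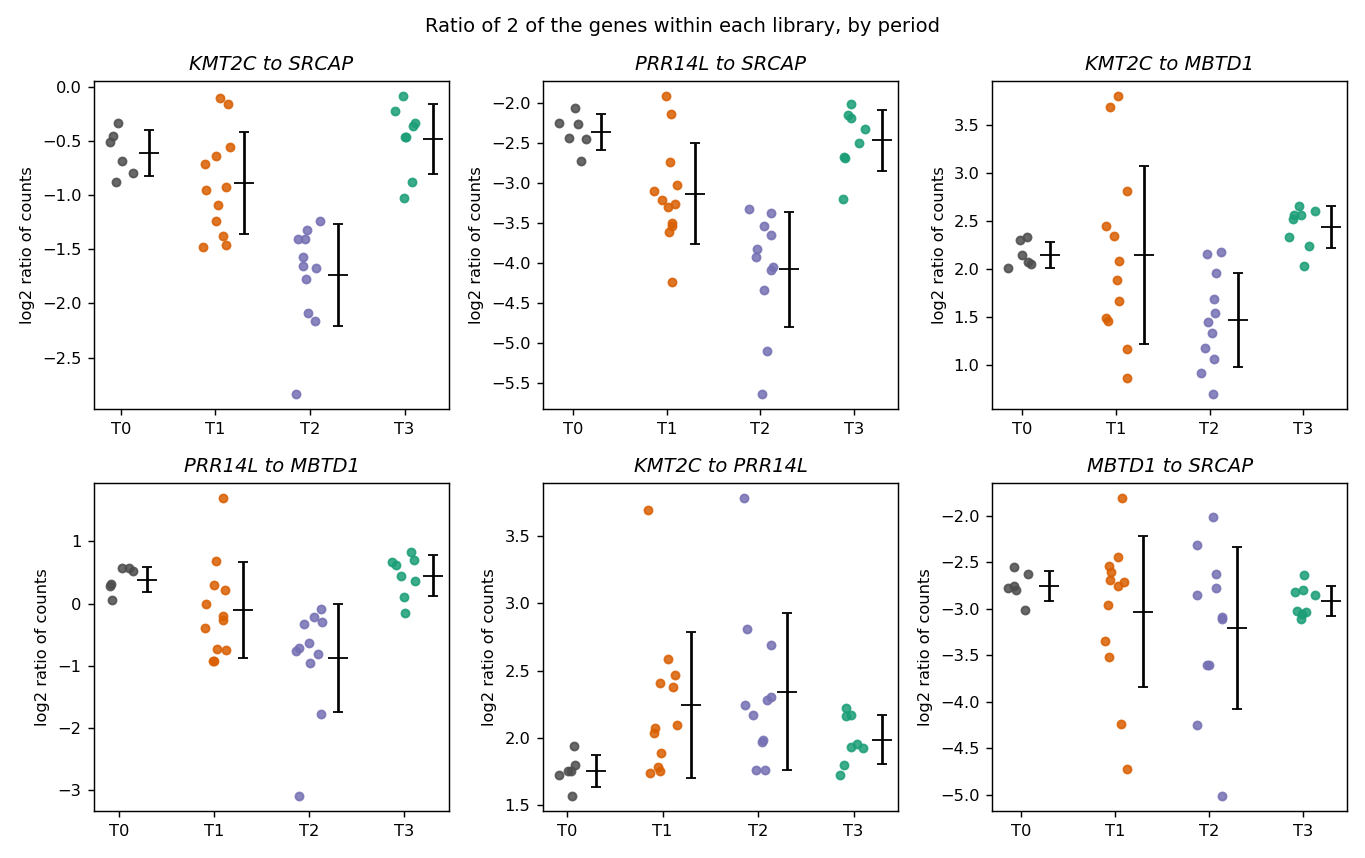
log2 ratio of the counts of 2 of the genes within each library (y axis, with 0.5 added to each count) by period (x axis), 1 panel per ratio and 1 point per library, with the mean and SD as a black bar. The ratios of KMT2C to SRCAP and PRR14L to SRCAP lie lower in T2 than in all libraries of T0 and T3, and the ratios of KMT2C to PRR14L and MBTD1 to SRCAP overlap between periods.

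Within a period the levels of the 4 genes mostly varied together across libraries. Of the 24 correlations of log2 CPM (6 pairs in 4 periods) 23 were positive, and the exception was KMT2C with MBTD1 in T1. Over all pairs of the 12025 genes kept in the 37 libraries the median Pearson r was close to 0 in every period (-0.005 to 0.032), and the 90th percentile lay between 0.611 and 0.776. All genes of a library share its scaling factor, and the r values of different pairs are not independent.

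In T3 Pearson's r of the 6 pairs lay between 0.887 and 0.972 with a median of 0.961 over 8 libraries. The highest was that of KMT2C with MBTD1 (r = 0.972, rho = 0.952, exact permutation adjusted p = 0.0026 and 0.0068, over the 24 correlations). All 6 had an adjusted p of Pearson's r below 0.05, and 3 of the 6 one of Spearman's rho. Without the 2 libraries farthest from the median r stayed between 0.909 and 0.967. The relation ran mostly between the 4 low and the 4 high libraries named above, and sets of 4 are too small for a correlation within them.

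In T2 the median r over 11 libraries was 0.823, with a range of 0.423 to 0.965. The 3 libraries with low PRR14L (replicates 1, 2 and 7) also held the 3 lowest levels of KMT2C and stood apart. In the other 8 libraries the median r was 0.593, and none of the 6 pairs had an adjusted p below 0.05, here adjusted over these 6 alone. There KMT2C with PRR14L had r = 0.824 and rho = 0.810 (exact permutation test, adjusted p = 0.084 and 0.13). SRCAP with MBTD1 had r = -0.056 and rho = -0.17 (exact permutation test, adjusted p = 0.88 and 0.70). The 3 libraries were set apart after seeing the data, by the levels of the correlated genes themselves. Leaving out the lowest levels narrows the range and lowers r, so the 8 libraries cannot show what the relation rests on.

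In T1 the median r over all 12 libraries was 0.385, with a range of -0.21 to 0.633, and 0 of the 6 pairs had an adjusted p below 0.05 for Pearson's r or Spearman's rho (permutation tests). These libraries fell into 2 sets by TMM factor. In the 7 libraries with a factor of at least 0.8, a set formed after seeing the data, the median r was 0.880 and the range 0.682 to 0.918, and 5 of the 6 pairs passed at an adjusted p of Pearson's r below 0.05. This adjustment was over the 6 pairs of the set and not over the 24, so the number passed is not comparable with that of all 12 libraries. The median r over all pairs of genes was not computed for the 7 libraries. MBTD1 with PRR14L had r = 0.918 and rho = 0.964 there (exact permutation test, adjusted p = 0.017 and 0.017). KMT2C with MBTD1 had r = 0.682 and rho = 0.821 (exact permutation test, adjusted p = 0.09 and 0.041). The 5 libraries with low factors held KMT2C levels of 22.4 to 29.8 CPM, above the median of 19.5 CPM in the other 7. They held MBTD1 levels of 2.02 to 5.52 CPM, below the median of 6.14 CPM in the other 7. In T0 the median r over 6 libraries was 0.595, with a range of 0.280 to 0.879, and only KMT2C with PRR14L passed (r = 0.879, rho = 0.829, exact permutation adjusted p = 0.044 and 0.11). Without T0 replicate 4 the median was 0.899.

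**Figure D4:**
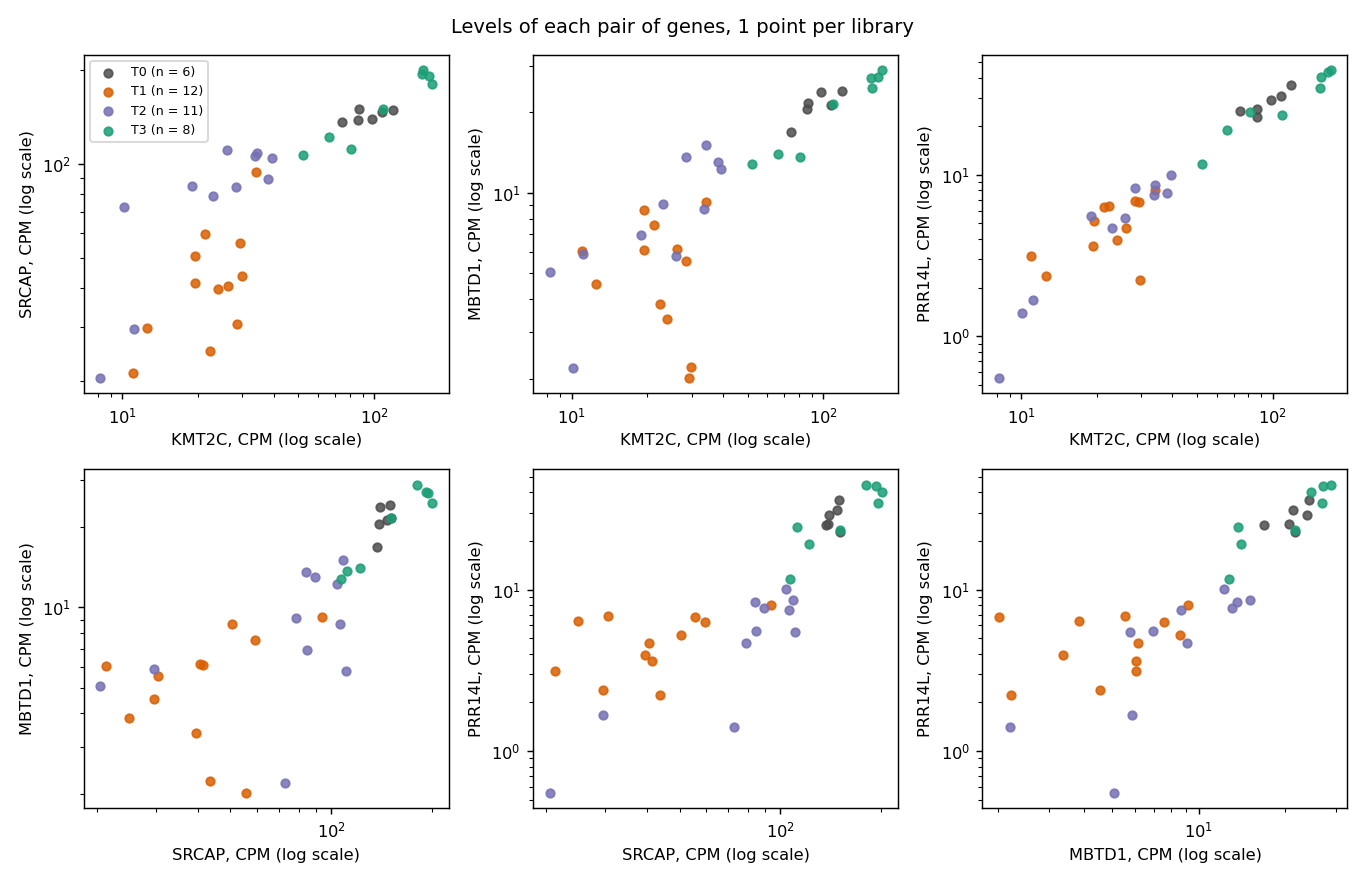
CPM of each pair of the 4 genes (both axes on a log scale, 1 panel per pair), 1 point per library, coloured by period. The points of T1 and T2 lie at the lower left and those of T0 and T3 at the upper right. The points of T3 fall along a line in every panel, and those of T1 show no rising line in the panel of KMT2C with MBTD1.

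Within T2 and T3 the levels also went with the TMM factor of the library, although they were already scaled by it. The share of all genes that do so was not computed, so this is not shown to be particular to the 4 genes. In T3 r between log2 CPM and the log2 factor was 0.876 for SRCAP and 0.843 for MBTD1 (rho = 0.833 for both, exact permutation adjusted p of r = 0.035 and 0.038, n = 8, over 32 such correlations). For KMT2C and PRR14L r was 0.789 and 0.746 (exact permutation test, adjusted p = 0.055 and 0.066). Over the 11 libraries of T2 r was 0.923 for KMT2C, 0.912 for PRR14L, 0.810 for MBTD1 and 0.741 for SRCAP (permutation tests, adjusted p = 0.0016, 0.0016, 0.019 and 0.038, with rho between 0.664 and 0.900). In the 8 upper libraries of T2 r lay between 0.213 and 0.645 with no adjusted p below 0.05, adjusted over the 4 genes only. In T1 the genes differed over all 12 libraries, with r of -0.33 for KMT2C, -0.11 for PRR14L, 0.39 for SRCAP and 0.73 for MBTD1, of which only MBTD1 passed (permutation test, adjusted p = 0.038). In the 7 libraries of T1 with a factor of at least 0.8 r lay between 0.768 for KMT2C and 0.917 for PRR14L (exact permutation test, adjusted p = 0.05 and 0.02, adjusted over the 4 genes only). In T0 it was negative for each gene, between -0.91 and -0.65, with no adjusted p below 0.05. In T3 r with the library total lay between 0.787 and 0.815 and did not pass for any gene (exact permutation test, adjusted p = 0.055 for each). The part of the factor and of depth in the differences between periods was not tested on its own. With the log2 factor as a covariate T0:T2 called none of the 4 genes and no gene of the whole table. The factors of T0 (1.17 to 1.24) and T2 (0.949 to 1.21) overlap in part, so the factor and the period are partly confounded there. The log2 fold changes in the T0:T2 fit were -1.03, -0.09, -0.43 and -1.10 for KMT2C, SRCAP, MBTD1 and PRR14L. In T0:T1, where the factors do not overlap (0.410 to 1.14 in T1), the same covariate left all 4 genes called. In T2:T3 the same covariate left 3 genes called, at 1.64 for KMT2C, 0.74 for MBTD1 and 1.74 for PRR14L, and SRCAP at 0.51 (edgeR adjusted p = 0.058).

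**Figure D5:**
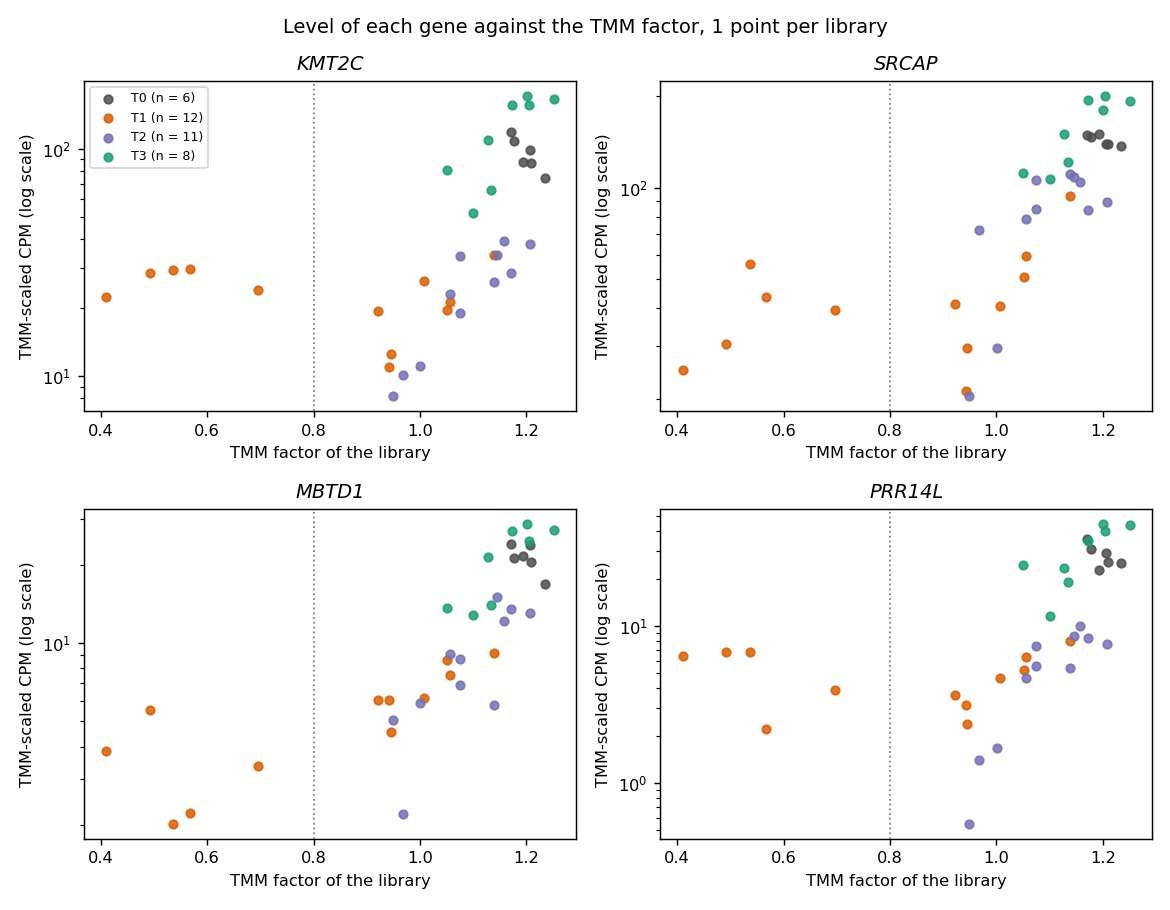
TMM-scaled CPM of each gene (y axis, log scale) against the TMM factor of the library (x axis), 1 panel per gene and 1 point per library, coloured by period, with a dotted line at a factor of 0.8. The 5 libraries left of the line are all of T1, and within T2 and T3 the levels are higher where the factor is higher.

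A list of 12 other regulators of transcription and chromatin with an identifier in the paper, which the study also chose on these libraries, moved in the same directions. All 12 were called lower in T0:T1 and in T0:T2, and all 12 were called higher in T2:T3 and in T1:T3. The median log2 fold change of this list was -1.41 in T0:T1, -0.88 in T0:T2, 1.36 in T2:T3 and 1.72 in T1:T3. In T1:T2 none was called and the median was 0.41. In T0:T3 only NCOA2, a nuclear receptor coactivator, was called, as higher (0.66, SE 0.15, adjusted p = 0.0066). NFAT5, a transcription factor of the response to osmotic stress, rose by 2.56 from T2 to T3 (SE 0.34, adjusted p = 4.1e-05). TAF1, the large subunit of the general factor TFIID, rose by 1.23 (SE 0.19, adjusted p = 0.00011). ZFP91, a zinc finger protein, rose by 0.64 (SE 0.12, adjusted p = 0.00047), and ZNF814 rose by 0.64 (SE 0.20, adjusted p = 0.011).

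Other members of the KMT2C, SRCAP and TIP60 complexes could not be described, because the files hold identifiers alone and the reference at hand pairs 0 of them with a symbol. The genes most alike were therefore sought among the 73 others that the paper pairs with an identifier, by the mean of the within-period r over the 4 periods. For PRR14L they were NFAT5 (mean r 0.867), KMT2C (0.837) and HIPK1 (0.810), and 1 of all 12024 other genes had a higher value than NFAT5. For KMT2C they were ENSECAG00000017861 (0.899), ENSECAG00000017946 (0.853) and PRR14L (0.837). For SRCAP they were TBL1X (0.785), KMT2C (0.760) and ENSECAG00000017861 (0.747). For MBTD1 they were ATP13A3 (0.904), WDR7 (0.897) and LARP4 (0.890), none of them a gene of this set. Among all 12024 genes 4 had a higher mean r with PRR14L than KMT2C did, and 1932 had a higher mean r with MBTD1 than SRCAP did.

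Markers of blood cell types or of antigen presentation could be checked only for 9 genes with an identifier in the paper. The study chose these genes too on the same libraries. The number called and its direction are therefore not independent evidence, and the shares of all genes are no fair measure for them. For cell types these were granzyme H and a granzyme H-like gene of cytotoxic lymphocytes and LY75 of dendritic and B cells. The paper prints LY75 as LY5, and the name LY75 is a reading made here. For antigen presentation they were 5 MHC class I genes and 1 MHC class II gene, which do not mark a single cell type. None of the 9 was at 0 in any period. Their summed level ran from 991 to 2773 CPM among T0 libraries and from 1916 to 20254 CPM among T1. It ran from 1237 to 8281 CPM among T2 and from 1045 to 4533 CPM among T3. The median sum was 2139, 5682, 4284 and 2734 CPM in T0 to T3. Most of it was MHC class I, with medians of 1923, 5440, 3979 and 2497 CPM. One of these genes, ENSECAG00000009368, ran from 11.5 to 5791 CPM in T1 with a median of 38.9. The granzymes together had medians of 58.2, 191, 119 and 99.7 CPM. In T0:T1 and in T0:T2, where the 4 chromatin genes fell, 6 of the 9 were called higher, against 28.9% and 17.0% of all genes tested, and LY75 was called lower. In T2:T3 LY75 was called higher and granzyme H lower, where 21.5% of genes were called lower, and in T0:T3 none was called. In T1:T3 LY75 was the only one called higher and 5 were called lower, against 32.0% of genes. The part of cell composition in the levels of KMT2C, SRCAP, MBTD1 and PRR14L was not tested.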

How the data were processed

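RNA of 37 blood libraries was analysed. The authors removed adapters and poor reads, aligned the rest with STAR to EquCab2 with Ensembl genes and derived an expected count for each gene from RSEM. The deposited table holds these expected counts rounded to whole numbers and not normalized; 3 smaller tables of the authors were not used. Reads of similar genes are shared out by RSEM, and reads from an overlapping antisense gene cannot be told apart. Periods and replicate numbers came from the labels.

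The analysis ran in R 4.3.3 using edgeR 4.0.16 (filterByExpr, TMM, quasi-likelihood F-test, 2 periods per fit, Benjamini-Hochberg adjustment). SE was obtained as the fold change on the log2 scale over the root of the F statistic. Correlations used log2 CPM with a prior count of 2, and ratios used counts plus 0.5. Permutation tests were two-sided and exact below 10 values per group, otherwise with 100000 draws where enumeration was too long. The scripts were tested on simulated data. Alternatives included DESeq2 1.42.0, a surrogate variable from sva 3.50.0 and a block by replicate number. The members, lists and tests were chosen with earlier results of these data known. The named genes were the 4 members, the 3 genes most alike each, the 12 regulators and the 9 genes of cell types or antigen presentation. The qPCR values were not analysed here. At the median depth 1 CPM is about 11 reads.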

Additional observations from a re-analysis of the deposited data

How the results depend on the processing

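The counts of members called did not change in T0:T1, T0:T3 and T1:T3 under any alternative run, nor when 1 library was left out (4, 0 and 4 in each). In T0:T2 and T2:T3 leaving out 1 library also left 4 called. In T0:T2 4 were called except with the log2 TMM factor as a covariate (0, with 0 of all genes called, 2 members and 1180 genes at an unadjusted p below 0.05) and with glmTreat (3, without SRCAP). In T1:T2 2 were called with DESeq2, in genes of at least 6 counts per library, with all 37 libraries in one fit, with sex as a term and with thinned libraries, MBTD1 being added to SRCAP. There 0 were called with the covariate, the first surrogate variable, glmTreat or without the libraries of TMM factor below 0.8, and leaving out 1 library gave 1 to 2. At an unadjusted p below 0.05 edgeR then had 0, 0, 1 and 1 members. In T0:T3 the fit with the covariate had 2 members and 4822 genes at an unadjusted p below 0.05. KMT2C was at 0.41 and SRCAP at 0.20 in that fit (edgeR adjusted p = 0.068 and 0.055). In T0:T3 the log2 fold change of MBTD1 turned to 0.0039 with at least 6 counts, 0.076 with the covariate and 0.0094 when thinned, and lay between -0.099 and 0.062 with 1 library left out. That of PRR14L turned to -0.013 under the replicate block and lay between -0.019 and 0.21. In T1:T2 PRR14L turned to -0.011 with the surrogate variable.

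Over all genes the count called in T1:T2 was 3584, 4904 with all libraries in one fit, 1018 with glmTreat and 0 with the covariate, the surrogate variable or without the low factors. In T0:T1 it was 6708 and 2795 with the covariate. In T0:T2 it was 3900, 2113 with all libraries, 2354 with at least 6 counts and 668 with glmTreat. In T0:T3 it was 2295, 717, 1865 and 282, and in T2:T3 5107, 3695, 3212 and 1933. In T2:T3 the covariate gave 2965 and in T1:T3 4804, against 7452. The cause was not tested.

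The replicate numbers shared by the groups did not pair the libraries throughout, since the sex label differed within some numbers. It was the same for 3 of 6 numbers in T0:T1, 2 of 6 in T0:T2 and 3 of 6 in T0:T3. Among trained horses it was the same for 6 of 11 in T1:T2, 3 of 8 in T2:T3 and 5 of 8 in T1:T3. A correlation above 0.1 was found for 1 of 6 numbers in T0:T1, 3 of 6 in T0:T2, 2 of 6 in T0:T3, 7 of 11 in T1:T2, 2 of 8 in T2:T3 and 5 of 8 in T1:T3. With the replicate block the members called were 4, 4, 0, 1, 4 and 4, as without it, and 1447 genes were called in T0:T3.

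The median correlation in T0 was 0.371 with unscaled CPM, -0.070 after removal of the log2 TMM factor, 0.333 without the 2 libraries farthest from the median, and 0.448 to 0.899 with 1 library left out. In T1 it was 0.720 with unscaled CPM, 0.880 without the low factors (chosen after seeing the data) and 0.223 to 0.472 with 1 library left out, lowest without T1 replicate 6. In T2 it was 0.435 after removal of the factor, 0.593 in the 8 upper libraries (also chosen after seeing the data) and 0.792 to 0.865. In T3 it was 0.833 with Spearman's rho, 0.888 after removal, 0.917 without the 2 farthest and 0.946 to 0.966.

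Of the 36 ratio differences 21 passed without the libraries of low factor, and 10 passed with 5 counts added. Among the 21 were 2 of KMT2C to PRR14L (T0:T2 and T0:T3, exact permutation adjusted p = 0.036 and 0.045). These 2 comparisons hold no library of T1, so only the adjustment over the 36 moved their adjusted p. With 1 library left out 9 to 17 passed, 17 without T1 replicate 9. The ratio of MBTD1 to SRCAP turned sign in T1:T3 with 5 counts added (-0.066) and without the low factors (-0.23), and in T0:T1 without them (0.065). Leaving out 1 library turned the sign of 6 ratio differences that had not passed. Their ranges were -0.16 to 0.11 for KMT2C to MBTD1 in T0:T1, -0.17 to 0.0030 for PRR14L to SRCAP in T0:T3, -0.0029 to 0.15 for PRR14L to MBTD1 in T0:T3, -0.046 to 0.23 for KMT2C to PRR14L in T1:T2, -0.33 to 0.0070 for MBTD1 to SRCAP in T1:T2 and -0.041 to 0.22 for MBTD1 to SRCAP in T1:T3. Depth limits MBTD1 and PRR14L most, which rest on as few as 6 reads in a library.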
